A study of Mus musculus with 6 samples.

Results

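The genes described here are 38 genes of the G2 phase and of mitosis: the kinases and cyclins that start mitosis, the spindle, kinetochore and checkpoint genes that move and watch the chromosomes, the ubiquitin genes of anaphase and the genes of cytokinesis. They were taken from a list of symbols, each required to have at least 10 counts summed over 6 libraries. All 38 listed symbols met that rule, and all 38 were among the 14378 genes tested of 32245 symbols counted.

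The samples were primary cardiomyocytes from wild type neonatal mouse hearts, sequenced as bulk polyadenylated RNA. The first group received BMP2 together with dorsomorphin (BMP2+DM), the second BMP2, and the third phosphate-buffered saline (PBS), with 2 libraries each. Receptors of BMP2, a growth factor of the TGF-beta superfamily, signal through SMAD proteins, and dorsomorphin is a small-molecule inhibitor of the type I BMP receptors that also inhibits other kinases, among them AMPK. The comparison of BMP2 with PBS asks what BMP2 did, and the comparison of BMP2+DM with BMP2 asks what the inhibitor did on top of it. No group received dorsomorphin alone. The sources used here give no exact age of the animals, no dose and no duration. The labels do not say whether replicates were separate cultures or animals, so the p-values measure only the spread between these samples.

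A cell that has copied its DNA enters mitosis when CDK1, bound to a cyclin of the A or B type, becomes active. The spindle checkpoint then holds the anaphase-promoting complex back until each kinetochore is attached, after which CDC20 and UBE2C let that complex tag securin and the cyclins for destruction. Most genes of this programme are transcribed late in the cell cycle. Their promoters often carry a cell cycle genes homology region (CHR), bound by the DREAM and B-MYB complexes together with FOXM1, and CCAAT boxes, bound by NF-Y. Mouse cardiomyocytes mostly stop dividing in the days after birth, and many complete nuclear division without cytokinesis and stay binucleate, while fibroblasts of the heart keep the capacity to divide.

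The promoters of the 4 genes that passed a test in any comparison are shown because they carry the shared letters of the programme in different arrangements. Capitals mark matches, on either strand, to the CHR letters TTTGAA or TTCGAA and to the CCAAT box. Each window runs from 250 bases before the RefSeq start to 50 bases after it in GRCm38.p6.
Cdc20 promoter, chr4:118437294-118437593, minus strand: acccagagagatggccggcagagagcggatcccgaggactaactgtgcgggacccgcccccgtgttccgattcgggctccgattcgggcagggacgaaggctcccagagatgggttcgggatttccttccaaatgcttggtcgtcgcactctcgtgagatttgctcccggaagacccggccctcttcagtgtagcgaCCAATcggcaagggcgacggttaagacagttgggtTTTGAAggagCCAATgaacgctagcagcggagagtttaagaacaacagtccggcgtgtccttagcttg
Cdk1 promoter, chr10:69352863-69353162, minus strand: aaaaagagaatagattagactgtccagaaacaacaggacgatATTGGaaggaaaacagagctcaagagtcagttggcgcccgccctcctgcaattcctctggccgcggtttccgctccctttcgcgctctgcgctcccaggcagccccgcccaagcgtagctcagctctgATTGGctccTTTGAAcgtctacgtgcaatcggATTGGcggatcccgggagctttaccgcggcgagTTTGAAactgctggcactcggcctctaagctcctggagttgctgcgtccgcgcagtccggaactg
Ube2c promoter, chr2:164769679-164769978, plus strand: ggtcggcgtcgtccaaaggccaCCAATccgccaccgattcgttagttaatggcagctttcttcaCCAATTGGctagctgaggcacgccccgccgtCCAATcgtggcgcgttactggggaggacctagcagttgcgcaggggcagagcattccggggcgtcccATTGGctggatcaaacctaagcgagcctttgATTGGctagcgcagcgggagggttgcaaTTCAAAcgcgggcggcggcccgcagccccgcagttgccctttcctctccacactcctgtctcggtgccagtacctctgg
Anln promoter, chr9:22389157-22389456, minus strand: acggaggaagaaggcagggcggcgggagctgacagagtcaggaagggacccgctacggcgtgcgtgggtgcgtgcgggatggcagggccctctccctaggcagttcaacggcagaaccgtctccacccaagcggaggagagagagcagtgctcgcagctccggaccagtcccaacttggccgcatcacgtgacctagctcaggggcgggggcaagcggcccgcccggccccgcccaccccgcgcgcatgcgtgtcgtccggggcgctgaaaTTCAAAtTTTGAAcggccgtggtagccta
Cdc20 held 1 CHR match and 2 CCAAT matches, Cdk1 held 2 and 3, and Ube2c held 1 and 6, of which the pair written CCAATTGG overlaps itself on the opposite strands. Anln held 2 CHR matches, a few bases apart, and 0 CCAAT matches.

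Of the 38 genes, 32 had a promoter window in RefSeq. Ccna2, Aurkb, Incenp, Tpx2, Kif20a and Foxm1 had none. A CHR match was present in the windows of 25 of the 32 genes (78.1%), against 21.7% of all 27025 genes with a window. A CCAAT box was present in 24 (75.0%), against 41.1% of all genes, and a window with both was present in 22 (68.8%), against 8.61%. At least 2 CCAAT boxes stood in 17 (53.1%), against 13.3%. E2F proteins bind many genes of DNA replication, and their letters were searched as TTCCCGC, with the variant TTGGCGC and the further variant TTCGCGC. They were found in 5 genes (15.6%), against 9.20% of all genes. In 5 genes (15.6%) none of these letters were found, against 42.6% of all genes. The median position was 2 bases after the start for CHR matches and -67.5 bases, before the start, for CCAAT boxes. A match is a description of letters, not a proven binding site.

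**Figure D1:**
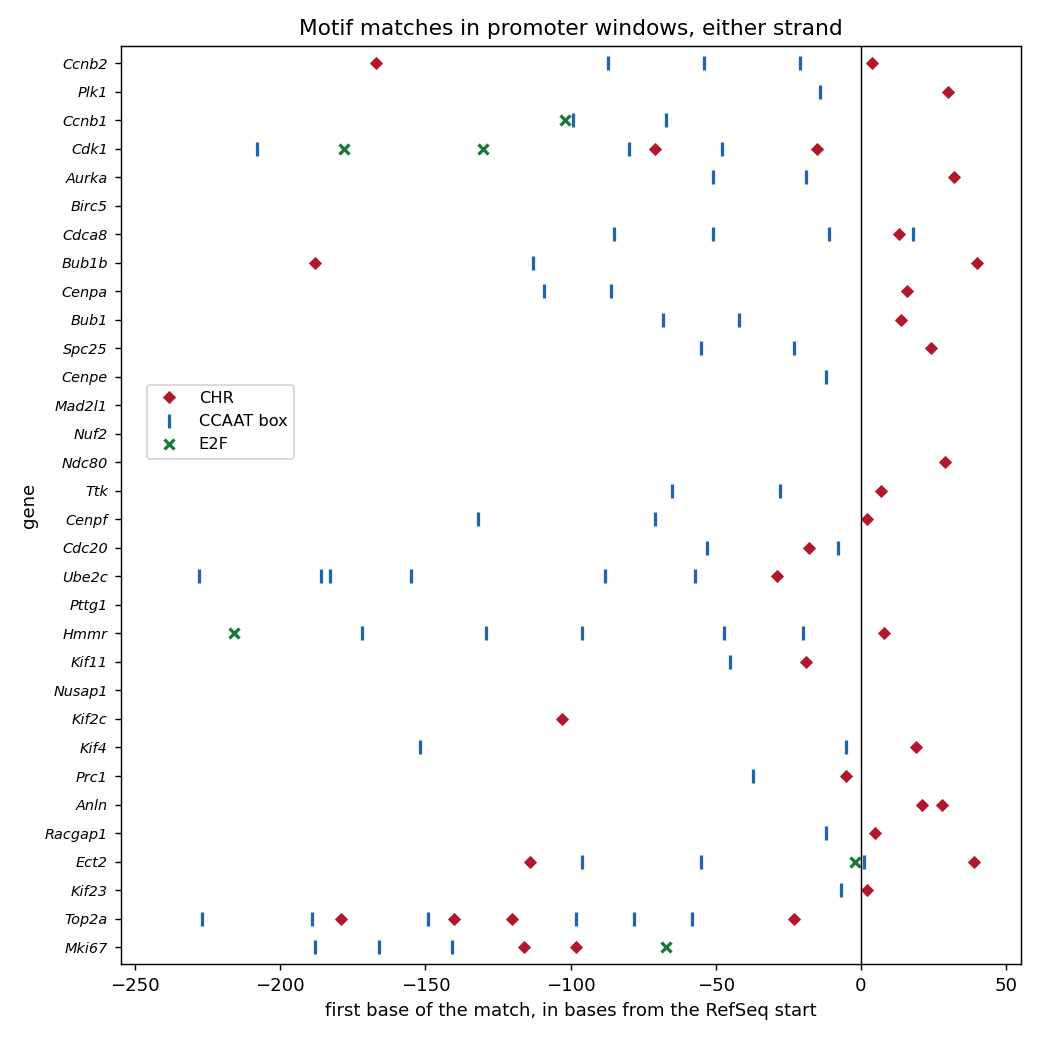
Positions of CHR (diamonds), CCAAT box (ticks) and E2F (crosses) matches, in bases from the RefSeq start (vertical line at 0), for the 32 genes with a promoter window, 1 window per gene. CHR matches gather around the start, with a median position of 2, and CCAAT boxes lie before it, with a median of -67.5.

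Counts on genes were between 10106667 and 14366042 per library, and the 38 genes took between 0.3186% and 0.3348% of them. Ttk was the least covered, with 217 counts in its lowest library and 1727 in all, and Top2a the most, with 20958 in all. Levels below are CPM, which is counts scaled to the TMM-adjusted library size. PBS 1 and BMP2 1 stood apart in models of ribosomal repeats, which took 1.31% and 2.10% of their gene counts, against 0.0702% to 0.0928% in the other 4 libraries. Cardiomyocyte markers were abundant in every library, 27420 to 37240 CPM summed over 12 genes. Fibroblast markers were also abundant, at 18160 to 22760 CPM summed over 12 genes. In such bulk samples, fewer dividing cells and less of a transcript per dividing cell cannot be told apart.

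All 38 genes were expressed in every library under every treatment. Per kilobase of exon, the highest mean levels over the 6 libraries were those of Cdc20 (44.7 CPM per kb), which activates the anaphase-promoting complex, Ccnb2 (36.6 CPM per kb), a B-type cyclin, and Top2a (34.4 CPM per kb), the topoisomerase that untangles sister chromatids. The lowest were those of Cenpf (4.05 CPM per kb), a large kinetochore protein with long transcripts, Ttk (5.19 CPM per kb), the checkpoint kinase MPS1, and Ndc80 (5.29 CPM per kb), which binds microtubules at the kinetochore. Length here is that of all annotated exons of a gene merged, not that of the transcripts these cells make. The order of genes per kilobase therefore depends on the annotation. Without division by length, Top2a and Mki67, the gene of the proliferation marker Ki-67, supplied 9.48% and 9.0% of the summed CPM of the 38 genes.

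**Figure D2:**
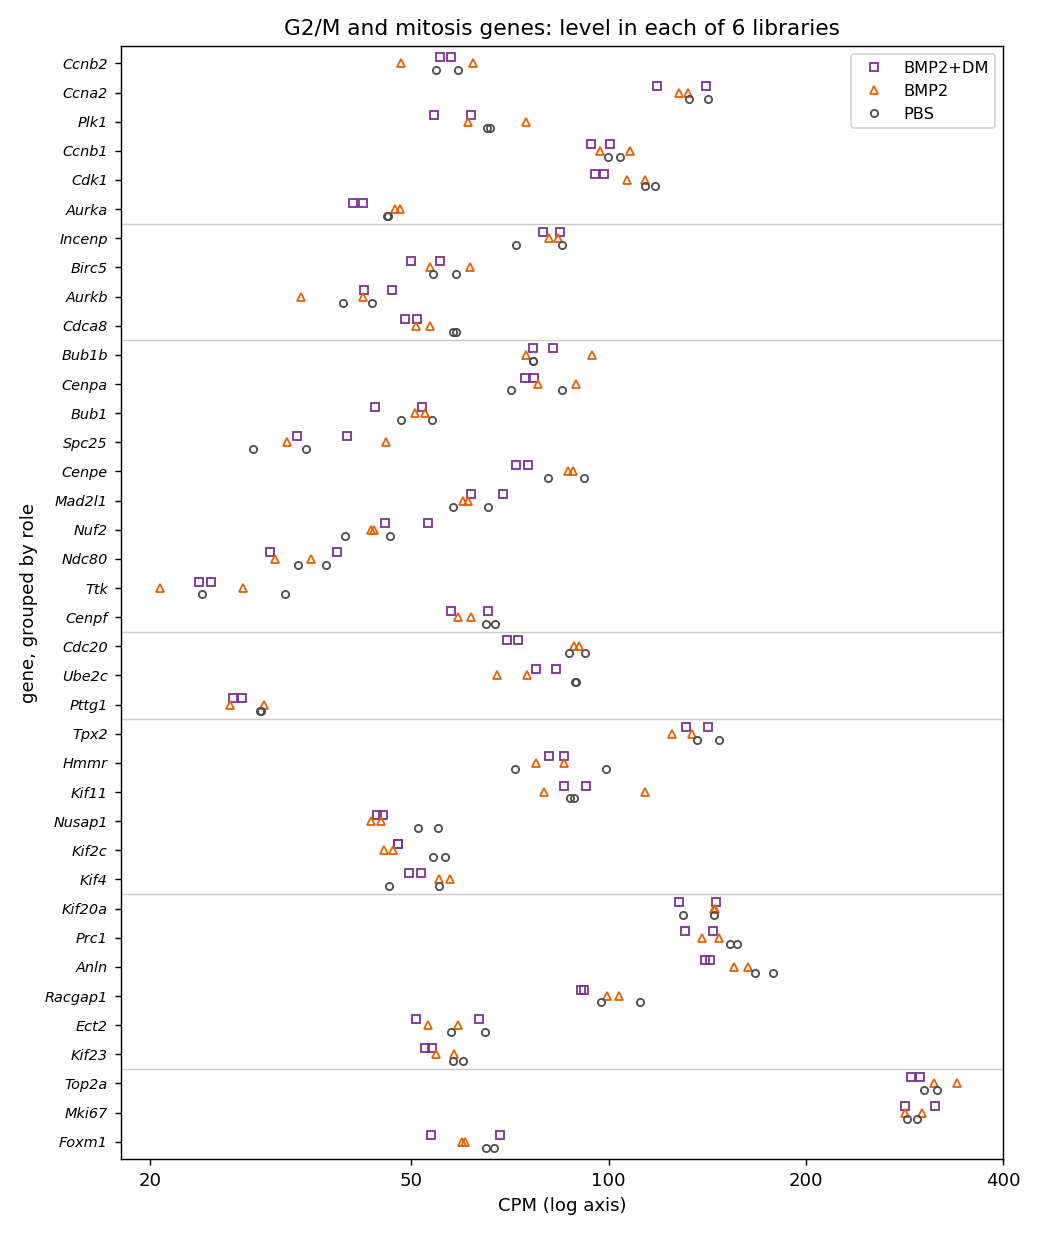
Level of each of the 38 genes in each of the 6 libraries (CPM, log axis), grouped by role with grey lines between roles. Squares are BMP2+DM, triangles BMP2 and circles PBS, 2 libraries each. The 6 points of most genes lie close together, with a median ratio of the highest to the lowest library of 1.24.

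Mki67 was the steadiest of the 38 genes. It had 315 and 284 CPM with BMP2+DM, 284 and 301 CPM with BMP2, and 285 and 295 CPM with PBS. The 3 groups overlapped, and the coefficient of variation over the 6 libraries was 4.24%. Spc25, a subunit of the NDC80 complex, varied most, at 17.1%. Its level was 33.5 and 39.9 CPM with BMP2+DM, 32.3 and 45.7 CPM with BMP2, and 34.5 and 28.6 CPM with PBS, so that the 2 BMP2 libraries differed from each other by more than the group means did.

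The median coefficient of variation of the 38 genes was 8.43%, against 14.5% over all tested genes, and 30 of the 38 (78.9%) stayed under 10%, against 29.6% of all tested genes. The 38 genes were also more abundant than most, with a median of 5.98 against 4.65 on the log2 CPM scale, and abundant genes have less counting error. The group with the highest mean was PBS for 20 genes, BMP2 for 14 and BMP2+DM for 4 (10.5%, against 34.4% of all tested genes). The group with the lowest mean was BMP2+DM for 19 genes (50%, against 33.3%), BMP2 for 13 and PBS for 6. Summed over the 38 genes, the level was 3161 ± 45.3 CPM with BMP2+DM, 3295 ± 13.3 CPM with BMP2 and 3354 ± 59.9 CPM with PBS (SD, n = 2 each). The lowest and highest libraries of this sum were 3128 and 3193 CPM for BMP2+DM, 3285 and 3304 CPM for BMP2, and 3311 and 3396 CPM for PBS, so that the groups did not overlap on this scale. As a share of unscaled gene counts they did overlap, at 0.3252% and 0.3186% with BMP2+DM, 0.3264% and 0.3321% with BMP2, and 0.3225% and 0.3348% with PBS. Those gene counts include the ribosomal repeats, which took 1.31% of PBS 1 and 2.10% of BMP2 1 and far less of the other libraries. The share without the repeats was not computed.

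Few of the genes passed a test. In BMP2 against PBS, 1 of 38 passed, Ube2c, which fell, where 15.8% of all tested genes passed, 6.55% as higher and 9.29% as lower (edgeR quasi-likelihood test, adjusted p under 0.05 over all tested genes). In BMP2+DM against BMP2, 1 of 38 passed, Cdc20, which fell, against 8.73% of all tested genes, 4.28% as higher and 4.44% as lower. In BMP2+DM against PBS, 3 of 38 passed, Anln, Cdc20 and Cdk1, all of which fell, against 20.9% of all tested genes, 9.38% as higher and 11.5% as lower. None of the 38 rose in any of the 3 comparisons with edgeR, and DESeq2 called the same genes with 0 higher. Without PBS 1 and BMP2 1, the libraries high in ribosomal repeats, 0 of the 38 passed in each comparison, while 574, 313 and 1388 of all genes tested then still passed. At an unadjusted p under 0.05 the counts were 0 higher and 3 lower, 0 and 5, and 0 and 8, in that order, where 28%, 21.8% and 32.1% of all tested genes passed in either direction. A single test for any difference among the 3 groups passed for 3 of the 38 genes, Anln (edgeR adjusted p = 0.0117), Cdc20 (0.0120) and Ube2c (0.0424), where 24.3% of all tested genes passed. Its unadjusted p was under 0.05 for 7 of the 38 genes, against 36.1% of all tested genes. Each pair of these comparisons shares libraries, so their counts are not independent of each other.

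Because a p above the threshold does not show that levels are alike, the width of each estimate was also read. The 95% interval of the log2 fold change lay wholly within 1.5-fold in either direction for 37 of the 38 genes in BMP2 against PBS, where 53.6% of all tested genes had such an interval. Spc25 was the exception, with an interval of -0.04 to 0.63. It lay within 1.5-fold for 38 of 38 genes in BMP2+DM against BMP2, against 56% of all tested genes, and for 38 of 38 in BMP2+DM against PBS, against 50%. The 38 genes were more abundant than most (median log2 CPM 5.98 against 4.65), and genes of like abundance were not compared. In 9 further cell cycle lists described below, this share ran from 62.2% to 95.2%. The lowest was that of other kinetochore genes and the highest that of condensin and cohesin genes, both in BMP2+DM against PBS. The median log2 fold change was -0.04 in BMP2 against PBS, -0.06 in BMP2+DM against BMP2 and -0.09 in BMP2+DM against PBS, beside medians over all tested genes of 0.0044, 0.00035 and 0.0070 in the same order. The estimate was below 0 for 22, 24 and 30 of the 38 genes in those comparisons, and for 7092, 7180 and 7054 of the 14378 tested genes. The 2 libraries of the groups did not overlap for 12 genes in BMP2 against PBS (1 higher and 11 lower, against 55.9% of all tested genes, 27.9% higher and 28% lower). They did not overlap for 15 in BMP2+DM against BMP2 (5 higher and 10 lower, against 50.3% of all tested genes, 25.4% higher and 24.9% lower) and for 15 in BMP2+DM against PBS (0 higher and 15 lower, against 58.5% of all tested genes, 29% higher and 29.5% lower).

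**Figure D3:**
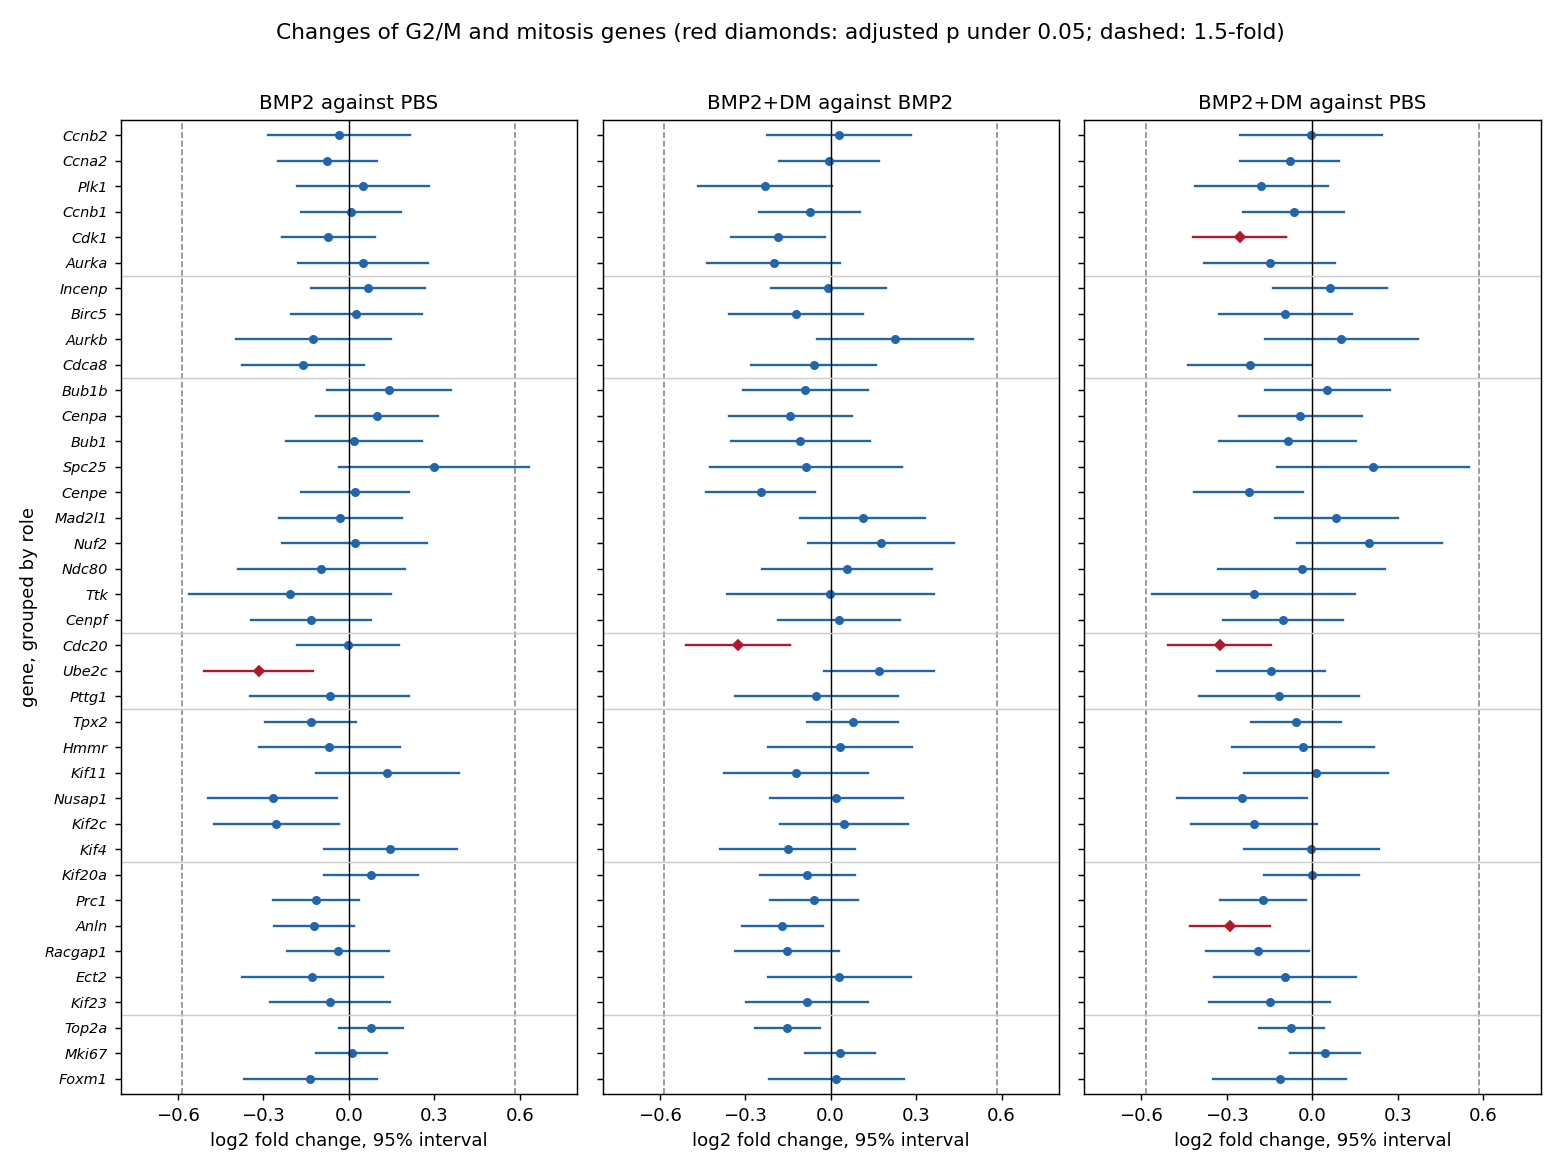
Log2 fold changes of the 38 genes with 95% intervals from the edgeR fit, in BMP2 against PBS (left), BMP2+DM against BMP2 (middle) and BMP2+DM against PBS (right). Red diamonds passed the test (1, 1 and 3 genes), dashed lines mark 1.5-fold, and only the interval of Spc25 in the left panel crosses one.

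Among the kinases and cyclins that start mitosis, Cdk1, the kinase itself, fell in BMP2+DM cultures relative to PBS. Cdk1 (chromosome 10, 69335146 to 69352938, mm10) had 98.6 and 95.2 CPM with BMP2+DM, 113.5 and 106.6 CPM with BMP2, and 113.6 and 117.8 CPM with PBS. Both BMP2+DM libraries were below the other 4. The log2 fold change was -0.26 ± 0.078 (SE) against PBS, or 0.838-fold (edgeR adjusted p = 0.0256). Against BMP2 it was -0.18 ± 0.078 (edgeR adjusted p = 0.173). The call against PBS was lost on leaving out either PBS library or either BMP2+DM library, with edgeR adjusted p between 0.0165 and 0.149 over 13 alternatives.

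The cyclins that partner CDK1 did not pass. Ccna2, cyclin A2, averaged 130 ± 15.8 CPM with BMP2+DM, 130.2 ± 2.83 CPM with BMP2 and 137 ± 6.65 CPM with PBS (SD, n = 2 each). Ccnb1, cyclin B1, averaged 97.3 ± 4.62, 102 ± 7.61 and 102 ± 3.08 CPM in the same groups, and its interval against PBS ran from -0.24 to 0.11 with BMP2+DM and from -0.17 to 0.18 with BMP2. Ccnb2 had 55.3 and 57.4 CPM with BMP2+DM, 62.2 and 48.2 CPM with BMP2, and 54.5 and 58.9 CPM with PBS, where the BMP2 pair spanned all other libraries. Plk1, polo-like kinase 1, which activates CDK1 and matures the centrosomes, averaged 57.9 ± 5.36 CPM with BMP2+DM, 67.9 ± 9.78 CPM with BMP2 and 65.6 ± 0.574 CPM with PBS. Its log2 fold change in BMP2+DM against BMP2 was -0.23 ± 0.11 (edgeR adjusted p = 0.245). All 6 genes of this role were below PBS in the BMP2+DM estimate, with a median of -0.11, as were 30 of all 38 genes. Of the 6, 1 passed, Cdk1.

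No gene of the chromosomal passenger complex passed in any comparison. This complex corrects wrong attachments and marks the cleavage site through the kinase AURKB, held in place by survivin (Birc5), borealin (Cdca8) and Incenp. Aurkb had 42.3 and 46.7 CPM with BMP2+DM, 34.0 and 42.2 CPM with BMP2, and 43.5 and 39.4 CPM with PBS. Birc5 averaged 52.7 ± 3.77, 57.4 ± 5.66 and 56.2 ± 3.33 CPM in the same order. The summed level of the 4 genes was 229 ± 5.58 CPM with BMP2+DM, 230 ± 7.85 CPM with BMP2 and 235 ± 3.10 CPM with PBS.

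None of the 10 checkpoint and kinetochore genes passed either. Bub1, a checkpoint kinase, had 51.9 and 44.0 CPM with BMP2+DM, 52.6 and 50.7 CPM with BMP2, and 48.3 and 53.7 CPM with PBS. Cenpa, the histone variant that marks centromeres, averaged 75.8 ± 1.65 CPM with BMP2+DM, 83.6 ± 7.82 CPM with BMP2 and 77.9 ± 9.87 CPM with PBS. For Bub1 and Cenpa, replicates of a group differed as much as the groups did. Cenpe, a kinesin that carries chromosomes to the spindle equator, had 72.2 and 75.4 CPM with BMP2+DM, 86.8 and 88.3 CPM with BMP2, and 80.8 and 91.8 CPM with PBS. Both BMP2+DM libraries of Cenpe were below the rest, and the difference missed the threshold (edgeR adjusted p = 0.113 against BMP2 and 0.0925 against PBS). Cenpf averaged 61.5 ± 5.72, 60.2 ± 1.94 and 66.0 ± 1.48 CPM in BMP2+DM, BMP2 and PBS libraries. The log2 fold change of Spc25 in BMP2 against PBS, 0.30 ± 0.16, was the highest estimate of the 38 genes there and did not pass (edgeR adjusted p = 0.238). The 10 genes summed to 549 ± 3.92 CPM with BMP2+DM, 568 ± 26.1 CPM with BMP2 and 558 ± 0.989 CPM with PBS.

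Of the 3 anaphase genes, Cdc20 and Ube2c passed in different comparisons. Cdc20 (chromosome 4, 118432901 to 118437352) fell in BMP2+DM cultures relative to both other groups. It had 72.8 and 70.0 CPM with BMP2+DM, 90.2 and 88.6 CPM with BMP2, and 87.0 and 92.1 CPM with PBS. The BMP2+DM libraries lay apart from the other 4, which overlapped each other. The log2 fold change was -0.32 ± 0.087 against BMP2, or 0.798-fold (edgeR adjusted p = 0.0246), and -0.33 ± 0.086 against PBS, also 0.798-fold (edgeR adjusted p = 0.0109). In BMP2 against PBS, the 95% interval of Cdc20 ran from -0.18 to 0.18. The call against BMP2 was lost on leaving out any 1 of the BMP2 or BMP2+DM libraries (edgeR adjusted p up to 0.225 over the 13 alternatives). The call against PBS was lost without PBS 2 and without BMP2+DM 2 (up to 0.0974).

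Ube2c, the ubiquitin-conjugating enzyme of the anaphase-promoting complex, fell in BMP2 cultures relative to PBS. It lies on chromosome 2, 164769898 to 164778822. Its level was 83.3 and 77.5 CPM with BMP2+DM, 75.2 and 67.6 CPM with BMP2, and 88.8 and 89.1 CPM with PBS. The BMP2 pair was lowest and the BMP2+DM pair stood between the other groups, overlapping neither. In BMP2 against PBS the log2 fold change was -0.32 ± 0.090, or 0.803-fold (edgeR adjusted p = 0.0226). In BMP2+DM against BMP2 it was 0.17 ± 0.092 (edgeR adjusted p = 0.30), and in BMP2+DM against PBS it was -0.15 ± 0.090 (edgeR adjusted p = 0.287). The call was lost without PBS 1, without PBS 2 and without BMP2 2 (edgeR adjusted p between 0.00899 and 0.202 over 13 alternatives). Of the exonic bases of Ube2c, 22.8% overlap Tnnc2 on the opposite strand, and no strand setting of the counting is given. Tnnc2 itself had between 1 and 10 counts per library. What the overlap did to the counts of Ube2c was not tested. Pttg1, securin, the protein whose destruction frees the sisters, averaged 27.2 ± 0.615 CPM with BMP2+DM, 28.1 ± 2.35 CPM with BMP2 and 29.4 ± 0.0985 CPM with PBS, and did not pass. The 3 anaphase genes summed to 179 ± 6.74 CPM with BMP2+DM, 189 ± 4.17 CPM with BMP2 and 208 ± 3.94 CPM with PBS.

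**Figure D4:**
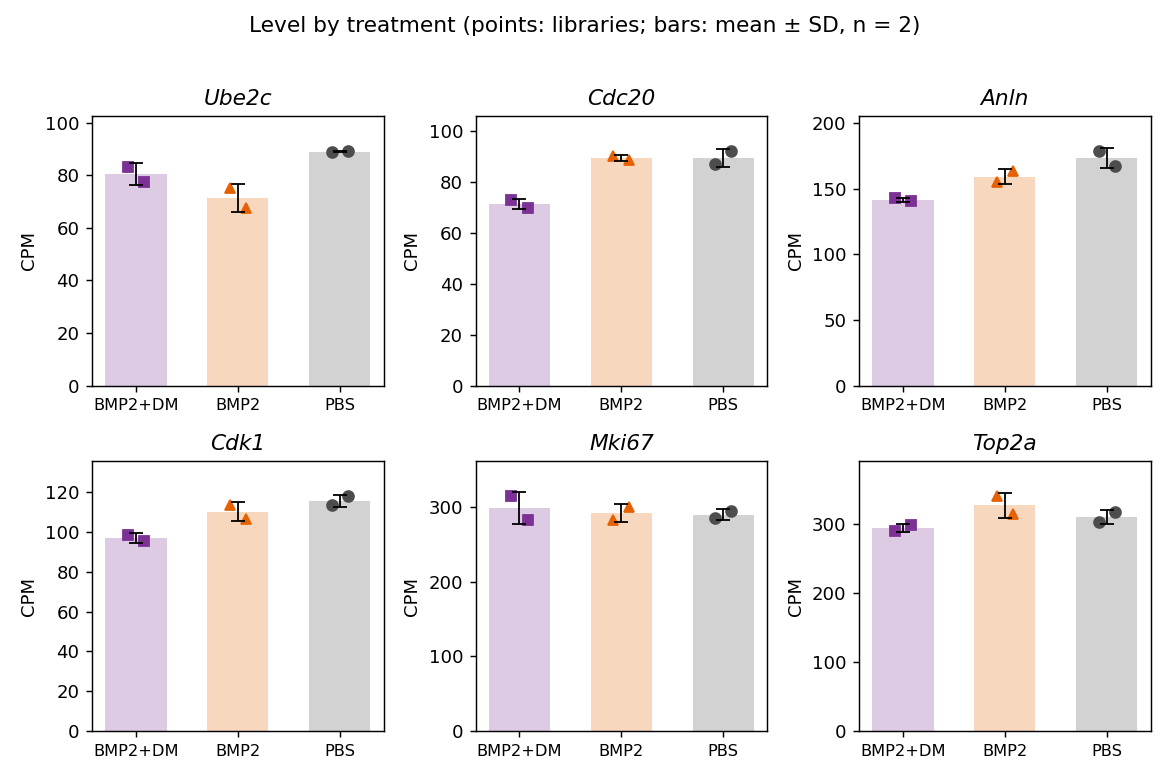
Level of 6 genes by treatment (CPM, axes from 0): points are libraries and bars are means ± SD (n = 2 each), with BMP2+DM at left, BMP2 in the middle and PBS at right. Cdc20, Anln and Cdk1 are lowest with BMP2+DM and Ube2c is lowest with BMP2, while the Mki67 libraries overlap between all groups.

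The 6 spindle motors and microtubule binders held no call. Kif11, the kinesin that pushes the spindle poles apart, had 92.3 and 85.4 CPM with BMP2+DM, 113.5 and 79.6 CPM with BMP2, and 87.5 and 88.5 CPM with PBS. Its BMP2 libraries were the highest and the lowest of the 6, and without BMP2 2 it passed as higher in BMP2 against PBS (log2 fold change 0.37, edgeR adjusted p = 0.0319). Nusap1, which bundles spindle microtubules, averaged 44.8 ± 0.569 CPM with BMP2+DM, 44.2 ± 1.18 CPM with BMP2 and 53.1 ± 2.72 CPM with PBS. Kif2c, a microtubule-shortening kinesin at centromeres, averaged 47.8 ± 0.0558, 46.2 ± 1.06 and 55.1 ± 1.73 CPM in the same order. In both genes the 2 PBS libraries were above the other 4, and in BMP2 against PBS neither passed (edgeR adjusted p = 0.108 for Nusap1 and 0.117 for Kif2c).

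Of the 6 genes that build the central spindle and divide the cell, Anln passed. It encodes anillin, the scaffold that ties actin, myosin and septins into the contractile ring, and it lies on chromosome 9, 22332012 to 22389188. Its level was 142.6 and 140.5 CPM with BMP2+DM, 155 and 163 CPM with BMP2, and 178 and 167.5 CPM with PBS. The 3 groups did not overlap, with BMP2 between the other groups. Anln fell in BMP2+DM against PBS by a log2 fold change of -0.29 ± 0.067, or 0.818-fold (edgeR adjusted p = 0.00457). The steps in between did not pass: the log2 fold change was -0.17 ± 0.068 in BMP2+DM against BMP2 (edgeR adjusted p = 0.146) and -0.12 ± 0.067 in BMP2 against PBS (edgeR adjusted p = 0.259). The call was lost without PBS 1 and held in 11 of the 13 alternatives (edgeR adjusted p between 0.000547 and 0.115).

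The other cytokinesis genes did not pass. Prc1, which crosslinks the microtubules of the central spindle, averaged 138 ± 9.52 CPM with BMP2+DM, 143 ± 6.0 CPM with BMP2 and 155 ± 2.95 CPM with PBS, and its difference between BMP2+DM and PBS missed the threshold (log2 fold change -0.17 ± 0.072, edgeR adjusted p = 0.100). Ect2, which switches on RhoA at the cell equator, had 63.4 and 50.9 CPM with BMP2+DM, 58.9 and 53.0 CPM with BMP2, and 57.5 and 64.9 CPM with PBS. Kif20a, a kinesin of the central spindle, averaged 137 ± 12.4 CPM with BMP2+DM, 145 ± 0.245 CPM with BMP2 and 137 ± 10.8 CPM with PBS. For Ect2 and Kif20a the groups overlapped in BMP2+DM against PBS. Summed over the 6 genes, the level was 618 ± 7.44 CPM with BMP2+DM, 661 ± 4.98 CPM with BMP2 and 690.1 ± 14 CPM with PBS. All 6 estimates in BMP2+DM against PBS were below 0, with a median of -0.16, as were 30 of all 38, and 1 of the 6 passed.

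Top2a had 289.8 and 298 CPM with BMP2+DM, 339.5 and 314 CPM with BMP2, and 303 and 317 CPM with PBS. Both BMP2+DM libraries were the lowest, and in BMP2+DM against BMP2 the log2 fold change was -0.15 ± 0.054 (edgeR adjusted p = 0.0971). Foxm1, the transcription factor that drives many of these genes, had 53.6 and 68.2 CPM with BMP2+DM, 59.7 and 60.4 CPM with BMP2, and 65.0 and 67.0 CPM with PBS. Its BMP2+DM libraries spanned all the others. The 95% interval of Mki67 ran from -0.08 to 0.17 in BMP2+DM against PBS and from -0.11 to 0.13 in BMP2 against PBS.

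Genes next to the 38 in the cell cycle were counted in 9 further lists with the same edgeR fit and threshold. The counts stand beside the shares of all tested genes, which were 6.55% higher and 9.29% lower in BMP2 against PBS, 4.28% and 4.44% in BMP2+DM against BMP2, and 9.38% and 11.5% in BMP2+DM against PBS. The unadjusted edgeR p was under 0.05 for 28%, 21.8% and 32.1% of all tested genes in the same order, in either direction. Among 19 genes of the anaphase-promoting complex and its regulators, 0 rose and 1 fell in BMP2 against PBS, 2 rose and 0 fell in BMP2+DM against BMP2, and 1 rose and 1 fell in BMP2+DM against PBS. Anapc2, the cullin subunit of the complex, averaged 100.4 ± 3.0 CPM with BMP2+DM, 80.9 ± 1.27 CPM with BMP2 and 102 ± 1.19 CPM with PBS, so it fell in BMP2 against PBS (edgeR adjusted p = 0.00687) and rose in BMP2+DM against BMP2 (edgeR adjusted p = 0.0218). Its calls were lost without PBS 2 or BMP2 1 for BMP2 against PBS, and without either BMP2 library or BMP2+DM 2 for the other. Both of these calls were also lost without PBS 1 and BMP2 1 together. Anapc16, a small subunit, rose in BMP2+DM against PBS by a log2 fold change of 0.71 ± 0.12 (edgeR adjusted p = 0.000311), a call held in all 13 alternatives. Of 37 other kinetochore and centromere genes, 0 rose and 1 fell in BMP2 against PBS, and 0 passed in the comparisons with BMP2+DM, where 1 and 2 had an unadjusted edgeR p under 0.05. Of 41 other spindle and centrosome genes, 0 rose and 2 fell in BMP2 against PBS, 0 rose and 1 fell in BMP2+DM against BMP2, and 0 passed in BMP2+DM against PBS, where 5 had an unadjusted p under 0.05. With DESeq2, 0 of the 37 kinetochore genes passed in any comparison, and 1 of the 41 spindle genes passed, in BMP2+DM against BMP2.

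Of 21 condensin and cohesin genes, 1 rose in BMP2 against PBS, 1 in BMP2+DM against BMP2 and 2 in BMP2+DM against PBS, and 0 fell. Esco2, which acetylates cohesin in S phase, was among them at 38.3 ± 19.0 CPM with BMP2+DM, against 21.2 ± 4.15 CPM with BMP2 and 14.7 ± 0.0684 CPM with PBS. The 2 BMP2+DM libraries of Esco2 differed widely, and its call against BMP2 held in 5 of 13 alternatives. Of 17 transcription regulators of late cell cycle genes, 1 fell in BMP2 against PBS, Tfdp2, a partner of E2F proteins (edgeR adjusted p = 0.0408, held in 7 of 13 alternatives, lost without any 1 of the PBS or BMP2 libraries). None of the 17 passed in the comparisons with BMP2+DM. There 7 and 1 had an unadjusted edgeR p under 0.05, against 21.8% and 32.1% of all tested genes. With DESeq2, 0 of the 17 passed in any comparison. Of 25 genes that control entry into mitosis, 1 rose and 2 fell in BMP2 against PBS. The riser was Gadd45g, at 96.2 ± 4.66 CPM with BMP2 (edgeR adjusted p = 0.0102), with log2 fold changes of 0.26 to 0.44 over the 13 alternatives. Gadd45b, of the same family, fell (log2 fold change -0.68 ± 0.15, edgeR adjusted p = 0.00391). In BMP2+DM against BMP2, 0 of the 25 passed and 6 had an unadjusted edgeR p under 0.05, against 21.8% of all tested genes. In BMP2+DM against PBS, 2 rose and 5 fell. Gadd45g, a stress-induced gene that can inhibit CDK1, rose in BMP2+DM against PBS, at 113 ± 1.01 CPM with BMP2+DM and 75.6 ± 6.64 CPM with PBS (edgeR adjusted p = 7.98e-05), which held in 13 of 13 alternatives. Cks1b, a small subunit that binds cyclin-dependent kinases, fell in the same comparison, at 47.2 ± 3.10 CPM with BMP2+DM and 62.1 ± 0.573 CPM with PBS (edgeR adjusted p = 0.0109), and lost its call without PBS 1, PBS 2 or BMP2+DM 2.

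Part of the cytokinesis machinery also serves the cortex and movement of cells that are not dividing. Of 20 such genes, 1 rose and 4 fell in BMP2 against PBS, 2 rose and 2 fell in BMP2+DM against BMP2, and 1 rose and 6 fell in BMP2+DM against PBS, where 15.8%, 8.73% and 20.9% of all tested genes passed in either direction. Myh9, the heavy chain of nonmuscle myosin IIA, averaged 697 ± 10.5 CPM with BMP2+DM, 865 ± 47.9 CPM with BMP2 and 1105 ± 35.3 CPM with PBS, a fall that passed in each comparison and in all 13 alternatives of each. Septins went both ways. Sept7 rose in BMP2+DM against BMP2 (edgeR adjusted p = 0.000557), with log2 fold changes of 0.244 to 0.498 over the 13 alternatives. Sept9, another septin, averaged 85.0 ± 0.396 CPM with BMP2+DM, 149 ± 12.4 CPM with BMP2 and 151 ± 3.51 CPM with PBS. It fell with BMP2+DM to 0.571-fold of BMP2 (edgeR adjusted p = 2.15e-06), also in all 13 alternatives. Rhoa, the GTPase that ECT2 activates, averaged 356 ± 15.5 CPM with BMP2+DM, 367 ± 7.77 CPM with BMP2 and 449 ± 4.35 CPM with PBS, and fell in BMP2 against PBS (edgeR adjusted p = 0.000312) and in BMP2+DM against PBS (edgeR adjusted p = 5.41e-05). Its call in BMP2 against PBS was lost without PBS 1 and BMP2 1 together.

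Ahead of mitosis stand the genes of DNA replication and of the decision to enter S phase. Of 34 genes of DNA replication and the G1/S step, 4 rose and 0 fell in BMP2 against PBS, 0 rose and 1 fell in BMP2+DM against BMP2, and 5 rose and 1 fell in BMP2+DM against PBS. Of all tested genes, 6.55% rose in BMP2 against PBS, 4.44% fell in BMP2+DM against BMP2 and 9.38% rose in BMP2+DM against PBS. The median log2 fold change of these 34 genes in BMP2 against PBS was 0.12, beside -0.04 for the 38 genes of mitosis. Rrm2, a subunit of ribonucleotide reductase, averaged 134 ± 9.13 CPM with BMP2+DM, 146 ± 0.808 CPM with BMP2 and 113 ± 4.51 CPM with PBS, and rose in BMP2 against PBS (edgeR adjusted p = 0.00185). That call was lost without PBS 1 and BMP2 1 together. Pcna, the sliding clamp of DNA polymerases, averaged 163 ± 1.08, 154 ± 0.344 and 132 ± 5.69 CPM in the same order, and rose in BMP2+DM against PBS in all 13 alternatives (edgeR adjusted p = 0.00325). Pcna also rose in BMP2 against PBS (log2 fold change 0.22 ± 0.067, edgeR adjusted p = 0.034). A list of 14 genes held the D-type cyclins and CDK inhibitors, together with Cdk2, Cdk4, Cdk6 and Rb1. Of these 14, 2 rose and 2 fell in BMP2 against PBS, and 0 rose and 1 fell in BMP2+DM against BMP2. In BMP2+DM against PBS, 3 rose and 1 fell. Ccnd1, cyclin D1, averaged 120 ± 0.991 CPM with BMP2+DM, 152 ± 5.75 CPM with BMP2 and 227 ± 9.09 CPM with PBS. Ccnd2, cyclin D2, averaged 498 ± 7.06, 466 ± 9.33 and 327 ± 9.99 CPM in the same order, and Cdkn1a, the inhibitor p21, averaged 383.5 ± 2.23, 414 ± 5.77 and 308 ± 6.64 CPM. Against PBS, Ccnd1 fell, and Ccnd2 and Cdkn1a rose, with BMP2 and with BMP2+DM (edgeR adjusted p between 1.25e-08 and 7.83e-05), each in all 13 alternatives. Cdkn1b, the inhibitor p27, fell in BMP2 against PBS, at 51.7 ± 1.84 CPM with BMP2 and 66.8 ± 0.24 CPM with PBS (edgeR adjusted p = 0.0181).

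**Figure D5:**
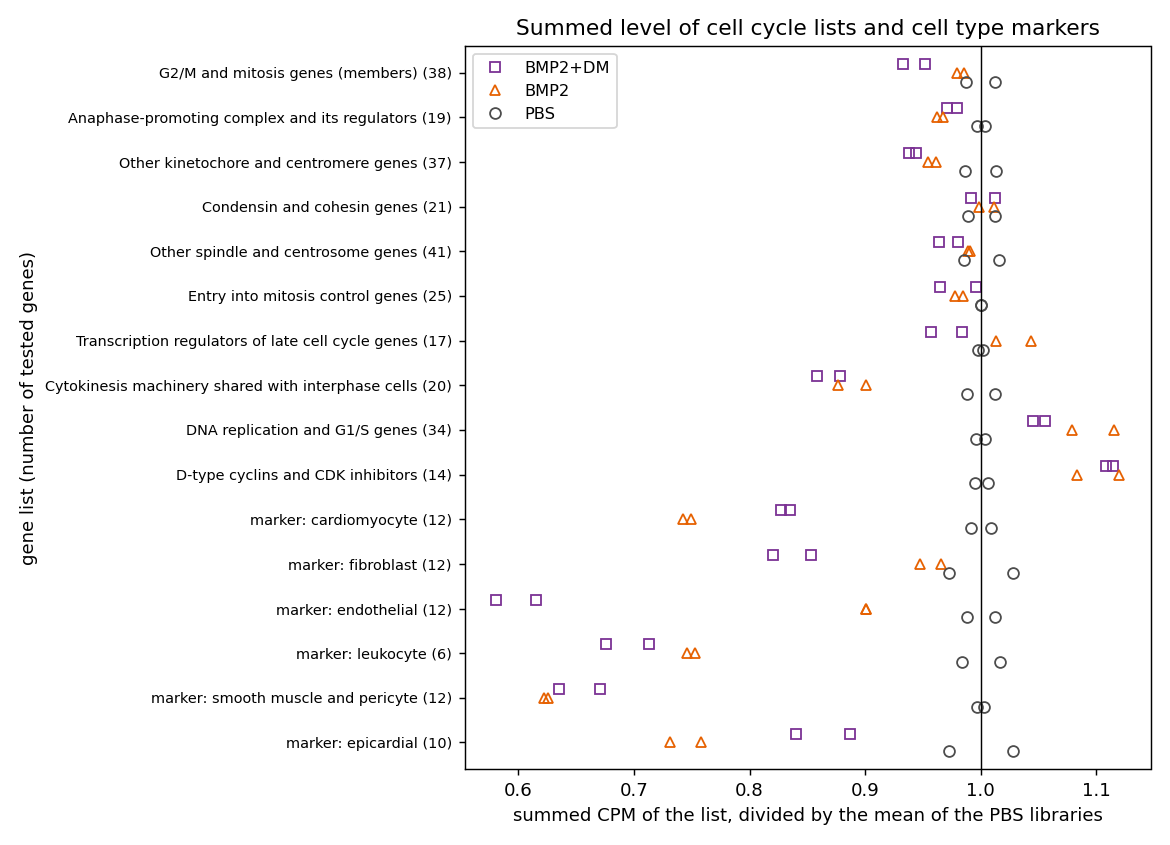
Summed CPM of the 38 genes, of 9 further cell cycle lists and of 6 marker lists, divided by the mean of the PBS libraries, with the number of tested genes in brackets. Squares are BMP2+DM, triangles BMP2 and circles PBS, 1 point per library; the 38 genes lie near 1 in all groups, while most marker lists lie further below 1 with BMP2 and BMP2+DM.

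Markers of the cell types that such cultures can hold differed between the groups. Among all tested genes, 6.55% were called higher and 9.29% lower in BMP2 against PBS. The shares were 4.28% and 4.44% in BMP2+DM against BMP2, and 9.38% and 11.5% in BMP2+DM against PBS. Cardiomyocyte markers summed to 30700 ± 199 CPM with BMP2+DM, 27550 ± 186 CPM with BMP2 and 36930 ± 440 CPM with PBS, and 11 of the 12 fell in BMP2 against PBS. In BMP2+DM against BMP2, 5 of the 12 rose and 0 fell, and in BMP2+DM against PBS 0 rose and 9 fell. Fibroblast markers summed to 18160 and 18900 CPM with BMP2+DM, 20990 and 21390 CPM with BMP2, and 21540 and 22760 CPM with PBS. Of the 12, 2 rose and 7 fell in BMP2 against PBS, and 3 rose and 6 fell in BMP2+DM against BMP2. In BMP2+DM against PBS, 3 rose and 7 fell. Endothelial markers were at 253.9 and 269 CPM with BMP2+DM, 394 and 394.1 CPM with BMP2, and 432 and 443 CPM with PBS, and 7 of the 12 fell in BMP2+DM against PBS, with 0 higher. In BMP2 against PBS, 1 endothelial marker rose and 1 fell, and in BMP2+DM against BMP2 0 rose and 5 fell. Smooth muscle and pericyte markers summed to 2851 ± 110 CPM with BMP2+DM, 2722 ± 9.69 CPM with BMP2 and 4365 ± 18.7 CPM with PBS. Of these 12, 2 rose and 7 fell in BMP2 against PBS, and 3 rose and 2 fell in BMP2+DM against BMP2. In BMP2+DM against PBS, 2 rose and 6 fell. Epicardial markers summed to 242 ± 9.18 CPM with BMP2+DM, 208.5 ± 5.33 CPM with BMP2 and 280.2 ± 11.1 CPM with PBS. Of these 10, 1 rose and 6 fell in BMP2 against PBS, and 3 rose and 1 fell in BMP2+DM against BMP2. In BMP2+DM against PBS, 1 rose and 5 fell. Of 12 leukocyte markers 6 were tested, with a sum of 64.2 ± 2.37 CPM with BMP2+DM, 69.3 ± 0.449 CPM with BMP2 and 92.4 ± 2.14 CPM with PBS, and Cd3e had 1 count in all. Of the 6 tested leukocyte markers 0 rose, and 1 fell in BMP2 against PBS, 1 in BMP2+DM against BMP2 and 2 in BMP2+DM against PBS. The part of these cell types in the differences of the 38 genes was not tested.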

How the data were processed

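Read counts per gene symbol came from the whole-number count files that the authors deposited, 1 per library. The submitters' processing notes name the tools FastQC, Trimmomatic, STAR, DESeq2 and HTSeq, without versions, and the genome build mm10. Not given in the sources used here are the annotation, the strand setting and the read layout. Library construction selected polyadenylated RNA, per the labels' protocols. The last 5 lines of each file name no gene, held 53.8% to 54.2% of its total and were left out.

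The 38 genes, the other lists and the rules were chosen with earlier results of these data known. Genes passing filterByExpr (minimum count 10, minimum total 15) were fitted over all 6 libraries in edgeR 4.0.16 (R 4.3.3) with TMM factors, 1 mean per group and no covariates, with 3 residual degrees of freedom. The quasi-likelihood F test was used with Benjamini-Hochberg adjustment over 14378 genes and a threshold of 0.05. The common biological coefficient of variation was 0.0872. Standard errors were taken as the size of the log2 fold change over the root of F, and 95% intervals use the t quantile at the total degrees of freedom (median 17.3). In the 38 genes, replicates differed beyond sampling noise (chi-square per degree of freedom 4.07 for BMP2+DM, 6.39 for BMP2 and 5.24 for PBS) and were counted separately. The fit was tested on simulated counts with known changes.

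Named genes are those of the 38 that passed a comparison, the 4 with the smallest p in each, the extremes per length and a fixed panel. In each further list they are called genes with the smallest p, at most 3 per comparison, of which some are given. Cdkn1b was named in addition and was not followed over the alternatives. Exonic lengths and gene positions come from GENCODE vM21 on the same build, in which 97.5% of symbols were found. Exons overlapping other genes make up over 10% of 5 of the 38 genes (Kif20a, Ube2c, Kif4, Ccna2 and Prc1), and 3 have like-named pseudogenes (Ccnb1, Ccnb2 and Kif4). Reads of these may have been assigned to the other gene or left uncounted, and the counting mode is not given. Promoter windows are from RefSeq (GRCm38.p6). Alternatives were DESeq2 1.42.0 and its size factors, no filter, fits of the 2 groups compared, a replicate block, leaving out each library, leaving out both libraries high in ribosomal repeats, and leaving out the repeat models.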

Additional observations from a re-analysis of the deposited data

How the results depend on the processing

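Each of the 5 calls among the 38 genes was lost without at least 1 library. Leaving out each library in turn gave 0 to 1 of the 38 genes in BMP2 against PBS, 0 to 1 in BMP2+DM against BMP2, 1 to 3 in BMP2+DM against PBS and 1 to 3 for any difference among the groups, and the lone library was then assumed to vary like the others. The median log2 fold changes ranged from -0.0642 to -0.00322, from -0.0833 to -0.0258 and from -0.122 to -0.0912 in the 3 comparisons. Without both libraries high in ribosomal repeats, 0 of the 38 genes passed in each of the 4 tests, the medians were -0.0730, -0.0261 and -0.122, and intervals lay within 1.5-fold for 26 (BMP2 against PBS) and 34 (BMP2+DM against BMP2) of the 38 genes. That setting also leaves 4 libraries, and over all genes 574, 313, 1388 and 1287 passed, against 2277, 1255, 3007 and 3501 with 6 libraries. Leaving out single libraries gave 1318 to 2470, 670 to 1081, 1827 to 2928 and 2276 to 3204 over all genes. Same-numbered replicates shared little of their deviations (correlations 0.079, -0.0030 and -0.029 over 11908 genes). With 2 libraries a group, this cannot show whether same-numbered samples came from the same preparation. With a replicate block, 1, 1, 3 and 3 of the 38 genes passed, the same genes as without it. DESeq2 called the same 1, 1 and 3 genes in the pairwise comparisons, and 2 of the 3 genes, without Ube2c, among all groups. No median of the 38 genes and no log2 fold change of a named gene that passed changed direction under any of the 13 alternatives, in which Cdkn1b was not followed. Among the 38 genes, those with an estimate below 0 numbered 19 to 28 in BMP2 against PBS, 22 to 25 in BMP2+DM against BMP2 and 26 to 30 in BMP2+DM against PBS, so some small estimates of genes that did not pass changed sign. Of the counts over the further pathway lists, 122 of 702 differed by more than 1.5 times from the main value. Doses, durations and the origin of replicates are unknown, and counts without molecular identifiers cannot tell molecules from copies.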
